A study of Caenorhabditis elegans with 6 samples.

Results

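NRDE-3-bound small RNA of susi-2(ust49) larvae was compared directly with NRDE-3-bound small RNA of susi-3(ust51) larvae of Caenorhabditis elegans. The comparison uses 2 of the 6 libraries of the study, chosen by genotype and by the immunoprecipitation (IP) named in the sample titles, and not by any measured value. Both strains also carry eri-1(mg366) and a FLAG::GFP::NRDE-3 transgene, as does the control strain, so the comparison says nothing about animals with a working eri-1. All animals were whole L3 larvae fed on Escherichia coli OP50, with 15 °C as the labelled temperature. The other libraries mentioned below are the total small RNA of the same pair of mutants and, from the control strain eri-1(mg366);GFP::NRDE-3, the IP and, for the strand of rRNA features alone, total small RNA. Each mutant is represented by 1 allele and each condition by 1 library, and no IP from animals without the tag was used here. There is therefore no replicate error and no test, and no p-value is given. Ratios carry 95% intervals for counting error alone; the reads bear no molecular identifiers, so they need not stem from separate molecules.

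NRDE-3 is a somatic Argonaute protein that carries siRNAs antisense to their targets from the cytoplasm into the nucleus, where it takes part in silencing of nascent transcripts. The siRNAs it carries include antisense ribosomal siRNAs (risiRNAs), which are made against ribosomal RNA and are known to accumulate when rRNA processing goes wrong. ERI-1 is an exonuclease that is needed both for 3′-end trimming of 5.8S rRNA and for a class of endogenous siRNAs that otherwise occupy NRDE-3. The susi genes are named as suppressors of siRNA. As background from the study of these mutants, susi-2 encodes RRP-8, a relative of a nucleolar methyltransferase that modifies the large-subunit rRNA, and susi-3 encodes RIOK-1, a relative of a kinase that acts in maturation of the small subunit.

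The susi-2 IP held 9122066 counts and the susi-3 IP 9507040. In the susi-2 IP 23.2% of all counts lay antisense to the annotated feature, against 10.8% in the susi-3 IP and 11.8% in the control IP. The total small RNA libraries did not show this order, with 17.6% antisense counts in susi-2 and 20.0% in susi-3. These shares include rRNA features annotated on the opposite strand, whose antisense column holds sense rRNA fragments. Outside the rRNA class, antisense counts were 9.05% of the susi-2 IP, 5.28% of the susi-3 IP and 6.10% of the control IP. Counted by the strand of the rRNA, reads against rRNA were 11.8%, 0.342% and 0.0470% in the same order. In total RNA the antisense share outside rRNA had a ratio of 0.787, susi-2 over susi-3. Length of the reads is not in the tables, so siRNAs were not separated from other fragments. Tissue markers, read as sense fragments, came from several larval tissues: body-wall muscle genes summed to 36167 counts in the susi-2 IP and 53547 in the susi-3 IP, intestinal genes to 9285 and 17457, and neuronal genes to 1444 and 1649. Germline genes summed to 1176 and 2011 counts, and the 46 sperm genes to 77 and 76, with none of them tested.

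Antisense counts on ribosomal RNA set the 2 IPs apart most. Antisense 26S rRNA made up 7.86% of the susi-2 IP (717187 counts) and 0.190% of the susi-3 IP (18018 counts), a ratio of 41.5 (interval 40.9 to 42.1). The control IP held 3147 such counts, or 0.0293%. Both mutants thus lay above the control, and the susi-2 library lay far above the susi-3 library.

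The small-subunit rRNA differed less. Antisense 18S rRNA, summed over its gene copies rrn-1.1 and rrn-1.2, was counted 55364 times in the susi-2 IP, 5473 times in the susi-3 IP and 1012 times in the control IP, so that the mutants' shares differed 10.5-fold (10.3 to 10.8). The 5.8S rRNA, which pairs with 26S rRNA in the large subunit and is encoded by rrn-2.1, had 9874 counts against 135, with 10 in the control, and a ratio of 76.2 (64.3 to 91.0). The 5S rRNA is the large-subunit rRNA that is transcribed separately from the precursor of the other rRNAs. Its 13 copies annotated on the strand of their reads had 47539 antisense counts against 911, with 185 in the control, and a ratio of 54.4 (50.9 to 58). The large-subunit rRNAs thus stood 41.5- to 76.2-fold higher in the susi-2 IP, and 18S rRNA 10.5-fold.

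**Figure D1:**
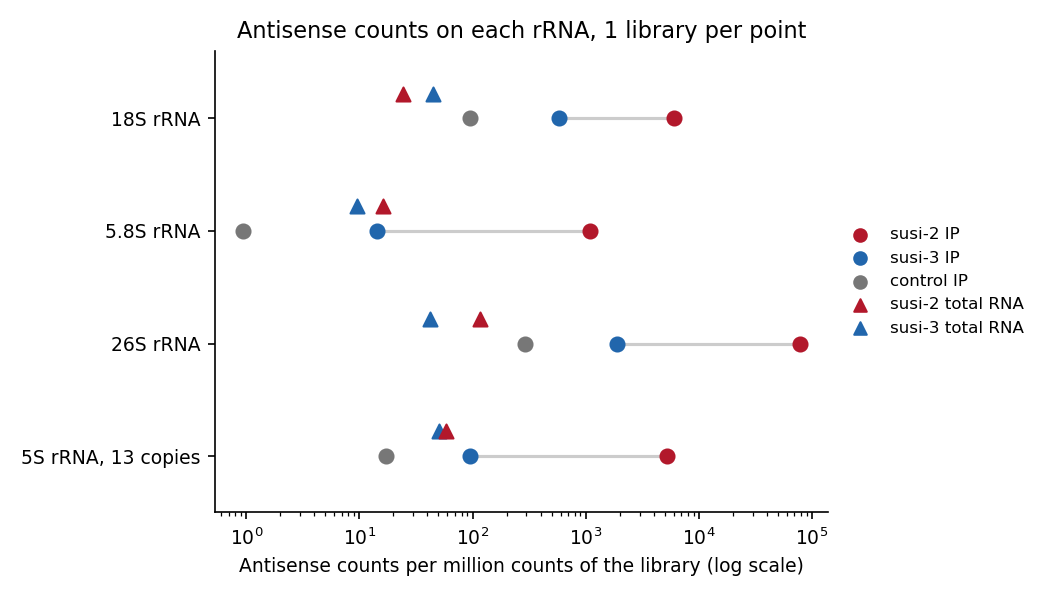
Antisense CPM (counts per 1000000 counts of the library, log axis) on 18S, 5.8S, 26S and 5S rRNA. Circles are the IPs and triangles the total small RNA libraries of the same mutants, 1 library per point. For each rRNA the susi-2 IP lies to the right of the susi-3 IP, and both lie to the right of the control IP.

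Because the ratios differ between rRNAs, the makeup of the antisense rRNA pool differed as well. In the susi-2 IP, 26S rRNA took 86.4% of the antisense counts over the 4 rRNAs, 18S 6.67%, 5S 5.73% and 5.8S 1.19%. In the susi-3 IP the same parts were 73.4%, 22.3%, 3.71% and 0.550%. Of the antisense counts on 18S and 26S rRNA together, 18S held 7.17% (7.11 to 7.22) in susi-2 and 23.3% (22.8 to 23.8) in susi-3. The control IP had 24.3% (23 to 25.7), an interval that overlaps that of the susi-3 IP. The susi-3 IP therefore had more antisense rRNA than the control IP at a makeup of 18S and 26S within counting error of it, while the susi-2 IP was poorer in 18S.

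Total small RNA of the same mutants gave a like order in the makeup of 18S and 26S rRNA, at much lower levels. Antisense 18S rRNA was counted 253 times in susi-2 and 441 times in susi-3, a ratio of 0.539 (0.460 to 0.631), so that here susi-3 was the higher. Antisense 26S rRNA was counted 1214 and 413 times, a ratio of 2.76 (2.47 to 3.1). The part of 18S among both was 17.3% in susi-2 and 51.6% in susi-3. The part of 5S among the antisense counts over 18S, 5.8S, 26S and 5S was 27.3% in susi-2 and 34.5% in susi-3, opposite in order to the IPs. The 4 precursor genes together had an antisense ratio of 1.63 (1.5 to 1.76) in total RNA and 34.5 (34.1 to 35.0) in the IPs, and 5S rRNA 1.16 in total RNA. The difference between the mutants in total RNA was thus in the same direction for 26S, 5.8S and 5S rRNA, and opposite for 18S rRNA.

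Sense fragments of 18S and 26S rRNA went the other way, and those of 5.8S and 5S rRNA did not. Sense fragments made up 47.5% of the susi-2 IP and 59.1% of the susi-3 IP over the precursor genes, a ratio of 0.803. For 26S rRNA the sense ratio was 0.788, for 18S 0.876, for 5.8S 1.61 and for 5S 1.22. Set against their own sense counts, antisense counts were 64.3% of all counts on 5S rRNA in the susi-2 IP and 3.88% in the susi-3 IP. For 5.8S rRNA these parts were 31.9% and 0.981%, for 26S 16.6% and 0.376%, and for 18S 7.39% and 0.659%. Among these sums, that of 5S rRNA alone had more antisense than sense counts in the susi-2 IP. Features annotated on the opposite strand are not part of these sums.

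Of the 24 features in the rRNA class, 7 carried under 1 in 10 of their counts on the annotated strand in the control total library. They are the noncoding genes F31C3.13 to F31C3.16 and the 5S copies rrn-4.4, rrn-4.3 and rrn-4.2. Of the F31C3 genes, 3 overlap rrn-1.1, rrn-1.2 or rrn-3.1 and the other one a 26S pseudogene in the WBcel235 gene table. Their sense column therefore holds reads against rRNA, and it showed the same contrast. F31C3.14, which overlaps 26S rRNA, had 145315 such counts in the susi-2 IP and 4544 in the susi-3 IP, a ratio of 33.3. F31C3.15 and F31C3.13, which overlap 18S rRNA, had 6712 against 617 and 3397 against 382, ratios of 11.3 and 9.27. The overlap with 18S went with the lower ratio. Whether a read was counted in each of the overlapping features is not stated. These ratios may rest on the same reads as those of rrn-1.1, rrn-1.2 and rrn-3.1, so they are not read as separate observations. Counting all 24 features by the strand of the rRNA, reads against rRNA were 11.8% of the susi-2 IP (1075037 counts), 0.342% of the susi-3 IP (32541) and 0.0470% of the control IP (5057). If overlapping features shared reads, these sums hold some reads more than once.

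The 5S copies behaved alike. Over the 12 copies with more than 50 antisense counts and the common strand, the ratio ran from 47.5 to 67.8, and in the 3 copies of opposite strand from 44.1 to 56.9. The near-equal counts per copy, 3874 to 4072 in 12 copies of the susi-2 IP, go with near-identical copies that may share reads, so the copies are not separate measurements. The diverged copy rrn-4.16 had 42 antisense counts in the susi-2 IP and 0 in the susi-3 IP.

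Outside rRNA the antisense counts were also higher in the susi-2 IP, by much less. Antisense counts of all other classes made up 9.05% of the susi-2 IP and 5.28% of the susi-3 IP, a ratio of 1.71, while in total RNA the ratio was 0.787. Gene by gene, log2 ratios of CPM were computed after adding 1 CPM, for the 4028 genes whose antisense counts in the IP pair summed to at least 50. Of these, 2145 (53.3%) had a ratio of 2-fold or more in favour of the susi-2 IP and 8 (0.199%) at least 2-fold lower. The median log2 ratio was 1.06, and 3634 genes had a ratio above 0. A gene counted mostly in the susi-2 IP enters this set more easily, so the counts describe the genes that passed and not all genes. In the total RNA pair 4771 genes passed, of which 187 (3.92%) were higher and 615 (12.9%) lower in susi-2.

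The size of this shift depends on the scaling. Trimmed-mean scaling (TMM) on the antisense counts of the 2 IPs puts its zero at a log2 ratio of 1.30 on the total-count scale. After it 525 genes (13%) stood at least 2-fold above the susi-3 IP and 473 (11.7%) lower, and antisense rRNA remained higher, at 14.1-fold for the precursor genes. Whether more siRNA was bound per NRDE-3 molecule, or more of the library was recovered as siRNA, cannot be told apart without a spiked standard. Ratios below are on the total-count scale unless TMM is named, and antisense log2 ratios between 0 and about 1.30 can change sign after TMM. In the susi-2 IP 2815 genes had at least 50 antisense counts, against 1099 in the susi-3 IP and 1502 in the control IP. The 10 highest protein-coding genes held 12.1% of the protein-coding antisense counts in susi-2 and 23.5% in susi-3, so the susi-2 counts were spread over more genes.

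**Figure D2:**
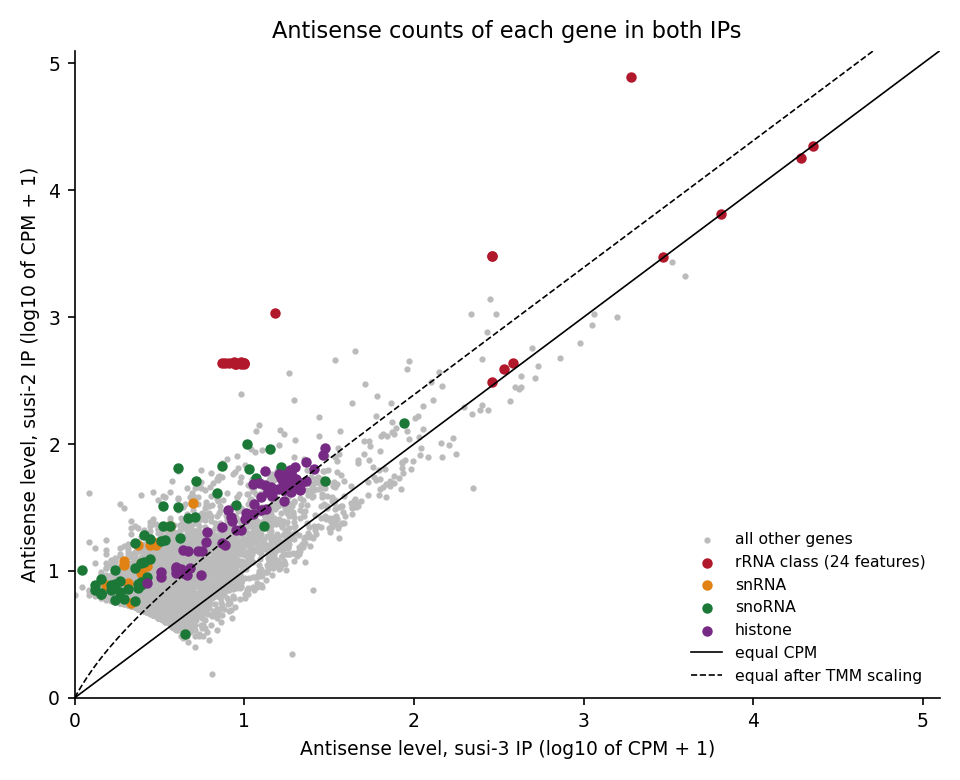
Antisense level of each gene with at least 50 antisense counts over both IPs, as log10 of CPM + 1, in the susi-3 IP (horizontal) and the susi-2 IP (vertical). Points above the solid line are higher in the susi-2 IP, and the dashed line marks equality after TMM scaling. The rRNA points of correct strand stand far above both lines, those of opposite annotated strand lie on the solid line, and snRNA and snoRNA points lie mostly above the dashed line.

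Other structural RNAs followed rRNA at a distance. Small nuclear RNAs form the core of the spliceosome, and over all 96 genes of their class antisense counts were 2418 in the susi-2 IP, 326 in the susi-3 IP and 248 in the control IP. The ratio was 7.73 (6.88 to 8.71), and the 16 genes tested were all at least 2-fold higher in susi-2, 14 of them also after TMM. These 16 genes had 5 to 38 counts in the susi-3 IP. They passed the count filter mainly by their susi-2 counts, so their direction follows in part from the filter. Over all tested genes, which met the same filter, 53.3% were higher and 13% after TMM. The class sum is not filtered. The U1 snRNA gene sup-6 had 304 counts against 38, with 29 in the control, and a log2 ratio of 2.78. Small nucleolar RNAs guide modification of rRNA. Their 345 genes had 12930 antisense counts against 2899 and a ratio of 4.65 (4.47 to 4.84), with 49 of 53 tested genes higher and a median log2 ratio of 2.22. After TMM 37 of the tested snoRNA genes were still higher. Most tested snoRNA genes also passed the filter mainly by their susi-2 counts. The snoRNA gene F54F11.6 had 577 counts against 29, the highest ratio in the class (log2 3.99), and F59C6.15 had 903 against 89 (log2 3.27).

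Transfer RNAs and the RNAs that donate the trans-spliced leader were higher too, but closer to the bulk. The tRNA class had 7175 antisense counts in the susi-2 IP against 2170, a ratio of 3.45 (3.28 to 3.62), and 30 of 32 tested genes were higher. After TMM 8 of them were. Over all tested genes 53.3% were higher, and 13% after TMM. Here too the filter is passed more easily by genes counted mostly in the susi-2 IP. Spliced leader RNAs had 732 counts against 197, a ratio of 3.87 (3.30 to 4.56). The SL2-type gene sls-2.9 had 49 counts against 4 (log2 2.17), whereas the SL1-type gene sls-1.12 had 182 against 99 (log2 0.88). The SmY RNAs, small nuclear RNAs that take part in trans-splicing, had 359 counts against 59 over their 12 genes, and smy-1 had 90 against 16. RNA of the signal recognition particle had 9722 counts against 2871 at srpr-2.2 and 3564 against 856 at srpr-2.1, with log2 ratios of 1.82 and 2.11.

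Most of these RNAs had the opposite order in total small RNA. Antisense snRNA was counted 1446 times in total RNA of susi-2 and 4602 times in that of susi-3, with 36 of 42 tested genes at least 2-fold lower in susi-2. Antisense spliced leader RNA was counted 1430 and 3226 times, with 13 of 14 genes lower, and SmY RNA 871 and 2983 times, with 8 of 11 lower. The background for lower genes in total RNA was 12.9%. Antisense snoRNA was counted 19504 and 12966 times, higher in susi-2 as a sum, while 19 of 42 tested snoRNA genes were lower and the median was −0.76. For snRNA, spliced leader RNA and SmY RNA the mutant with more antisense RNA in the total pool was not the one with more in the IP, whereas for the snoRNA sum it was the same mutant.

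Histone genes showed the same reversal among protein-coding genes. In the IPs their 72 genes summed to 21430 antisense counts in susi-2 and 7457 in susi-3, with 15247 in the control. Of 66 tested, 65 were at least 2-fold higher, where 53.3% of all tested genes were. Their median log2 ratio was 1.49, with a range of 0.74 to 2.21. The lowest was his-24, a linker histone gene, at 75 counts against 43. After TMM none of the 66 was 2-fold higher or lower, so histone genes moved with the bulk of the IP. In total RNA the histone genes had 4510 antisense counts in susi-2 and 9672 in susi-3. Of 61 tested, 42 were at least 2-fold lower in susi-2 (median −1.31), where 12.9% of all tested genes were. Many histone genes are near-identical copies whose reads may be shared.

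Genes of ribosome synthesis lay above the bulk in the IP. The 79 ribosomal protein genes summed to 7444 antisense counts in the susi-2 IP, 2196 in the susi-3 IP and 2030 in the control IP, a ratio of 3.53 (3.37 to 3.71). Of 61 tested, 55 were higher, and 19 still after TMM, where 53.3% and 13% of all tested genes were. The highest was rpl-36.A with 115 counts against 8, and rla-0, a stalk protein gene, had 223 against 36. The lowest was rps-30, with 313 against 411. Ribosome biogenesis factors had 5632 counts against 1674, a ratio of 3.51 (3.32 to 3.71), with 27 of 32 tested higher and 9 after TMM. Most tested members of both lists passed the count filter mainly by their susi-2 counts. Their direction thus follows in part from the filter, while the list sums are not filtered. Among them snu-13, which encodes a protein of box C/D snoRNPs, had 326 counts against 29, and nol-56, another protein of these particles, 214 against 17. The fibrillarin gene fib-1 had 130 against 19, and ncl-1, which restrains nucleolar size, 805 against 112. In total RNA 0 genes were higher and 1 lower of 38 tested ribosomal protein genes, and none of 40 biogenesis genes passed 2-fold. Over all genes tested in total RNA 3.92% were higher and 12.9% lower in susi-2. The antisense share ratio in total RNA was 1.095 (1.03 to 1.164) for ribosomal protein genes and 1.277 (1.215 to 1.343) for biogenesis genes. Antisense counts outside rRNA had a ratio of 0.787 there.

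Over all tested genes 53.3% were higher, and 13% after TMM. Among genes of the small RNA pathways the Argonaute and ERGO-1 target lists lay furthest above the first share. The nuclear RNAi, RNA-dependent RNA polymerase and mutator, and P granule lists lay nearer to it. The 21 Argonaute genes summed to 19008 antisense counts against 5035, a ratio of 3.93 (3.81 to 4.06), with 14 of 15 tested higher and 6 after TMM. Most of the summed counts were at alg-1 and at nrde-3, the gene of the tagged protein. The latter had 6920 against 2539, with a log2 ratio of 0.21 after TMM. The microRNA Argonaute genes alg-1 and alg-2 had 9644 against 2056 (388 in the control) and 446 against 43. The germline Argonaute genes wago-4 and csr-1 had 535 against 51 and 327 against 56. Of the nuclear RNAi genes, 6 of 9 were higher, and 3 were higher and 1 lower after TMM: nrde-2, a binding partner needed for nuclear silencing, had 224 against 40 and set-25, which encodes a histone H3 lysine methyltransferase and overlaps unc-64, 101 against 13. The other methyltransferase gene met-2 had 493 against 542, with 65 in the control. Of RNA-dependent RNA polymerase and mutator genes 12 of 16 were higher and 3 after TMM, with ego-1 at 124 against 23 and mut-14 at 72 against 5. P granule genes had 6 of 10 higher, near the share over all tested genes, and 1 of 10 after TMM, from pgl-2 at 30 against 25 to the helicase gene glh-4 at 290 against 59. ERGO-1 target genes, whose siRNAs depend on ERI-1, had 1005 antisense counts against 221 in the IPs and 429 against 2096 in total RNA. Of the 17 on the list 6 were tested and 5 were higher, 2 of them after TMM, led by Y43F8B.9 at 374 against 18.

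**Figure D3:**
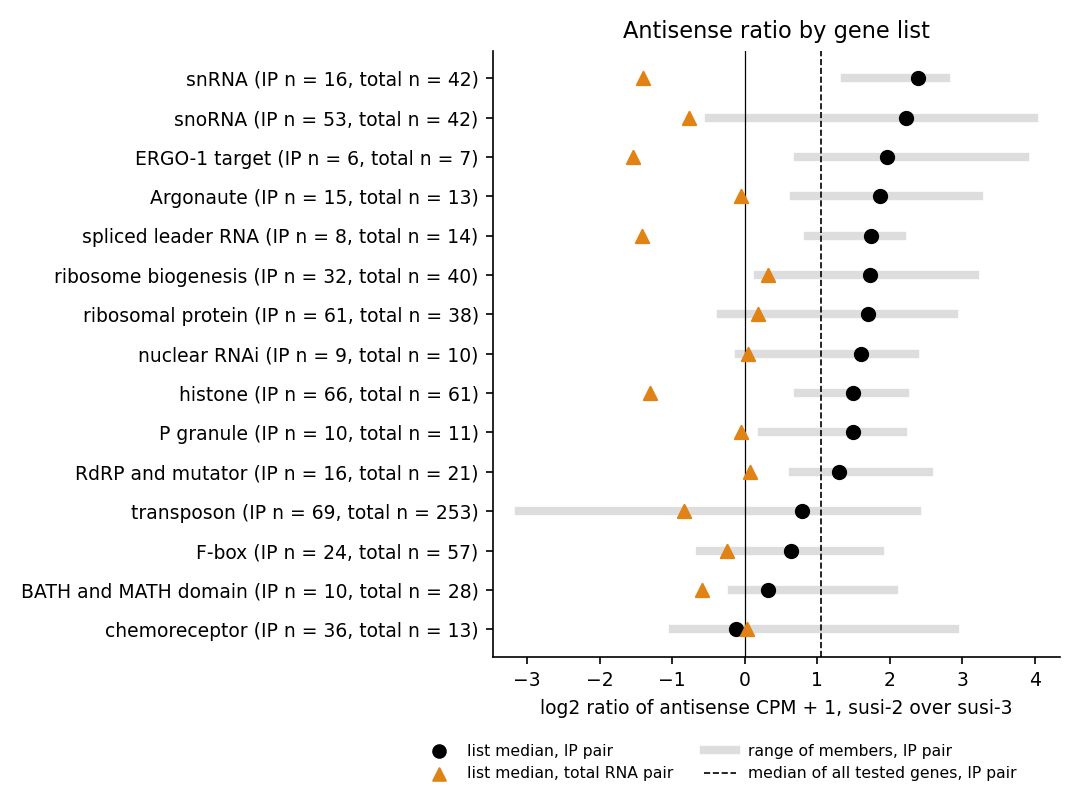
Median log2 ratio of antisense CPM + 1, susi-2 over susi-3, of each gene list in the IP pair (black circles) and in the total RNA pair (orange triangles), with the range of tested members in the IPs (grey bars) and the number tested. The dashed line marks the median of all tested genes in the IPs, 1.06. The snRNA, spliced leader, ERGO-1 target and histone medians are above 1 in the IPs and below −1 in total RNA.

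At the other end, F-box, BATH and MATH domain and transposon genes were shifted less than the median of all tested genes, 1.06, and chemoreceptor genes were not higher at their median. Of all tested genes 53.3% were at least 2-fold higher and 0.199% lower. Of 24 tested F-box genes, which encode substrate adaptors of ubiquitin ligases, 7 were at least 2-fold higher (median 0.64), from fbxa-107 at 25 counts against 45 to fbxa-24 at 59 against 10. Of 10 tested BATH and MATH domain genes 2 were higher (median 0.32), from math-45 at 34 against 41 to bath-40 at 73 against 11. Transposon genes had 21 of 69 higher and 1 lower (median 0.79). The lower one, R52.2, had 11 antisense counts in the susi-2 IP, 172 in the susi-3 IP and 477 in the control IP. Chemoreceptor genes, a list added after the values were seen, had 7 of 36 tested higher and a median of −0.12. Within it sri-54 had 157 against 334, with 2 in the control. After TMM 20 of the 36 chemoreceptor genes were at least 2-fold lower in susi-2 and 2 higher, where 11.7% and 13% of all tested genes were.

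The 12 highest ratios among protein-coding genes with at least 200 antisense counts ran from 3.55 to 5.08 on the log2 scale, and a low count in the susi-3 IP follows from that choice. The control IP had no part in it. The chitinase-like gene chil-19 had 365 counts in the susi-2 IP, 2 in the susi-3 IP and 1 in the control IP, with 1 count in total RNA of susi-2 and 2 in that of susi-3. The nuclear hormone receptor gene nhr-97 had 3303, 165 and 212 counts, a ratio of 20.9 (17.8 to 24.5). The Beclin homologue bec-1, which acts in autophagy, had 301, 8 and 28, and it was higher in total RNA too, at 215 counts in susi-2 against 59. The nonsense-mediated decay helicase gene smg-2 had 456, 26 and 82 counts, part of which may be fragments of an overlapping noncoding gene. The ubiquitin ligase gene eel-1 had 4175, 317 and 408, the C-type lectin gene clec-179 278, 9 and 4, and ram-2 4890, 417 and 567. The control IP lay above the susi-3 IP at nhr-97, bec-1, smg-2, eel-1 and ram-2. It lay below it at the others of the 12, as at F19B10.13 with 2268 counts in the susi-2 IP, 82 in the susi-3 IP and 12 in the control IP.

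On the total-count scale 394 of the 4028 tested genes had no excess in the susi-2 IP, and 135 of 718 protein-coding genes with at least 200 antisense counts had a log2 ratio below 0. The carnitine palmitoyltransferase family gene cpt-4 had 403 counts in the susi-2 IP, 2122 in the susi-3 IP and 604 in the control IP, a ratio of 5.05 in favour of susi-3. It was higher in susi-3 total RNA too, at 353 counts against 132. The gene pqn-96, which encodes a protein rich in glutamine and asparagine, had 752, 1677 and 3499, and the sperm calcium channel gene spe-41 892, 1522 and 174. The channel gene unc-79 had 190, 331 and 31, and ifta-1, which encodes a protein of cilia transport, 83, 159 and 6.

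The 3 protein-coding genes with the most antisense counts in the susi-3 IP were also higher there than in the susi-2 IP, by less than 2-fold. The lectin gene clec-72 had 37526 antisense counts in the susi-3 IP, 19335 in the susi-2 IP and 5924 in the control IP, but only 29 and 40 in total RNA of susi-3 and susi-2. The gene cup-16 had 10702, 7871 and 14459 in the IPs and 0 in both totals. The chromatin remodeller gene nurf-1 had 9074 against 5749, with 136 in the control. The noncoding gene linc-133 had 15015 against 9130, with 311 in the control. The reads at linc-133 equally lie along the overlapping linc-110, whose sense counts were 16112 and 9993. Across 27 protein-coding genes with at most 10 antisense counts over both totals and at least 1000 over both IPs, the median log2 ratio was −0.38 and 16 were below 0. The median was 1.06 over all tested genes, of every class and with at least 50 counts. Of protein-coding genes with at least 200 antisense counts, 135 of 718 were below 0. The 27 genes also differ from these sets in their counts in the IPs.

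The antisense ratio in the IPs followed the abundance of antisense RNA in the total pool. When tested protein-coding genes were ranked by antisense CPM in the total libraries and split into 5 bins of 705 or 706 genes, the median log2 ratio of the IPs was 0.65, 0.97, 1.15, 1.31 and 1.36 from the lowest bin to the highest. The part of genes at least 2-fold higher in susi-2 was 29.3%, 47.2%, 59.3%, 69.1% and 66.8%. Ranked by sense CPM, the medians were 0.67, 1.08, 1.09, 1.18 and 1.28. Genes with little RNA of either strand in the total pool therefore had the smallest excess in the susi-2 IP. The log2 ratio of a gene in the IPs and in total RNA were nearly unrelated, at a Spearman rho of 0.12 over 2292 genes on the antisense strand and 0.10 over 6060 genes on the sense strand. These are descriptions across genes, which share libraries and depth and are not independent replicates.

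**Figure D4:**
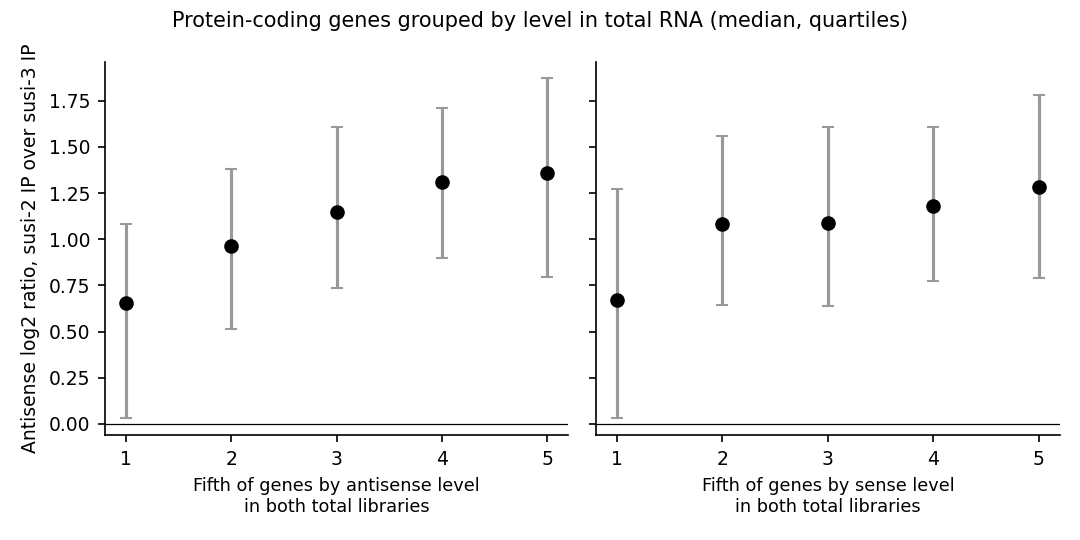
Median antisense log2 ratio, susi-2 IP over susi-3 IP, of protein-coding genes in 5 bins by their antisense (left) or sense (right) level in both total libraries, with bars from the lower to the upper quartile over genes. The medians go from 0.65 in the lowest bin to 1.36 in the highest on the left, and from 0.67 to 1.28 on the right.

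The mutated loci gave small counts. Sense fragments of rrp-8 were counted 31 times in the susi-2 IP, 51 times in the susi-3 IP and 106 times in the control IP, and antisense reads 48, 8 and 7 times. The gene overlaps nog-1 in the WBcel235 table, and fragments of nog-1 may be among its antisense counts. For riok-1 the sense counts were 344, 366 and 427 and the antisense counts 54, 11 and 14. For eri-1, which is mutated in all strains, the antisense counts were 53, 10 and 24. What the alleles change in the genes is not stated in the labels, so the counts do not check the labels. The gene of the tagged protein, nrde-3, had 35725 and 40741 sense counts, a ratio of 0.914 (0.901 to 0.927), and 6920 and 2539 antisense counts (log2 1.5). In total RNA its antisense counts were 1114 in susi-2 and 2274 in susi-3.

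Sense fragments differed at fewer genes. Of 7804 genes with at least 50 sense counts over both IPs, 331 (4.24%) passed 2-fold towards the susi-2 IP and 327 (4.19%) lower, with a median log2 ratio of −0.16. TMM on the sense counts moved ratios up by 0.19.

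The lowest ratio was that of E01G4.6, with 9 counts in the susi-2 IP, 1470 in the susi-3 IP and 1864 in the control IP. Several cuticle collagen genes were also far lower in the susi-2 IP. Of 101 tested col- genes 23 were at least 2-fold lower in the susi-2 IP and 6 higher, where 4.19% and 4.24% of all tested genes were. The gene col-71 had 192 counts in the susi-2 IP, 7444 in the susi-3 IP and 9651 in the control IP, col-38 32, 1660 and 1996, and col-49 8, 757 and 845. Among higher ones col-41 had 554 against 199. Of 18 collagen genes named for body shape 4 were lower: bli-1 had 12, 732 and 841 counts, bli-6 25, 331 and 609, bli-2 36, 368 and 452, and sqt-1 644, 1615 and 1731. The related gene rol-1 had 28, 821 and 1247. At these collagen genes the susi-3 IP lay near the control IP and the susi-2 IP apart from both. The collagens of the bli genes belong to the adult cuticle in C. elegans, and L3 larvae do not yet wear it. In total RNA bli-1 was counted 4 times in susi-2 and 176 times in susi-3, and rol-1 9 and 89 times, but sqt-1 634 and 284 times and col-49 10 and 9 times.

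Other low sense counts in the susi-2 IP were at ttr-14, a transthyretin-like gene, with 9 counts against 660 (790 in the control), and msra-1, which encodes a methionine sulfoxide reductase, with 449 against 4567 (3487 in the control). Germline fragments were lower in the susi-2 IP as a sum, with the P granule gene pgl-3 at 108 against 363 and 767 in the control. Muscle genes had a median log2 ratio of −0.55 with none of 11 past 2-fold, intestinal genes −0.53 with 4 of 11 lower, and neuronal genes −0.08 with none of 11. Whether the larvae of the 2 libraries were of the same age within L3 was not tested.

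Heat shock genes were lower in the susi-2 IP as a group, and at the inducible members the susi-3 IP was the one apart from the control. Of 14 tested 10 were at least 2-fold lower, with a median of −1.16, and after TMM 6 were. The small heat shock gene hsp-16.41 had 22 counts in the susi-2 IP, 143 in the susi-3 IP and 14 in the control IP, and the inducible hsp-70 33, 137 and 29. The constitutive chaperone gene hsp-1 had 3887, 4871 and 5665, and hsp-110 914, 2116 and 1625. The endoplasmic reticulum chaperone gene hsp-4 had 288, 633 and 804. In total RNA 9 of 15 were lower, where 3.82% of all tested genes were, with a median of −3.27 and hsp-70 at 13 counts in susi-2 and 284 in susi-3. Members differed there, as hsp-4 had 606 counts in susi-2 and 385 in susi-3, and the ratio of the summed list was 0.689 in total RNA and 0.643 in the IPs. The inducible hsp-16.41 and hsp-70 were thus highest in both libraries of susi-3, while hsp-1 and hsp-4 were counted most in the control IP.

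Genes of detoxification had 9 of 58 tested higher in the susi-2 IP and 2 lower, where 4.24% and 4.19% of all tested genes were. Lower members were thus no more frequent than over all genes. The glutathione S-transferase gene gst-24 had 556 counts in the susi-2 IP, 39 in the susi-3 IP and 17 in the control IP, and gst-38 54, 10 and 12. The glucuronosyltransferase gene ugt-31 had 209, 20 and 57, and ugt-44 was the lowest at 243, 988 and 294. The ABC transporter gene pgp-8 had 283, 22 and 14 counts, and 1120 against 55 in total RNA. High sense counts in the susi-2 IP were also found at pals-26, with 9739 against 1973, and at F43E2.6, with 17236 against 1604. F43E2.6 was high on the antisense strand too, at 12601 against 2662. Of the 2808 protein-coding genes tested on both strands, 26 were at least 2-fold higher on both. Another 43 were higher on the antisense strand and lower on the sense strand. Taken singly, 1916 of 3526 tested protein-coding genes were higher on the antisense strand and 185 of 7207 on the sense strand.

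Sense fragments of ribosomal protein genes were moderately higher in the susi-2 IP. They summed to 154040 counts against 103949, a ratio of 1.54 (1.53 to 1.56), with a median log2 ratio of 0.58 over 78 genes, from −0.36 at rpl-12 to 1.21 at rpl-13. Of these 3 passed 2-fold upwards, where 4.24% of all tested genes did. In total RNA 38 of 78 were at least 2-fold higher in susi-2, where 7.62% of the 8422 tested genes were. Sense fragments of snoRNA genes were higher as well in the IP, at 37463 against 24459 (ratio 1.60), with 21 of 93 tested higher, beside the same 4.24%.

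**Figure D5:**
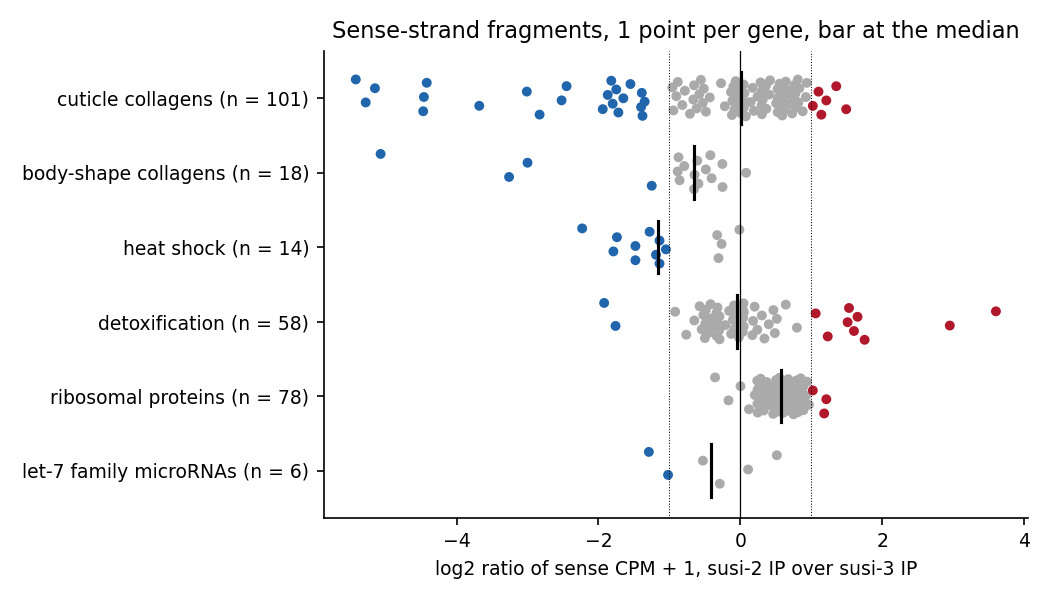
Log2 ratio of sense CPM + 1, susi-2 IP over susi-3 IP, of each tested gene in 6 lists, with a bar at each list's median and dotted lines at 2-fold. Red points are at least 2-fold higher and blue points at least 2-fold lower in the susi-2 IP. Collagen and heat shock genes hold most of the blue points, and ribosomal protein genes lie together above 0.

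MicroRNAs, which are loaded by other Argonautes, made up 3.65% of the susi-2 IP and 4.2% of the susi-3 IP, a ratio of 0.869. The ratio in total RNA was 0.831. Of 84 tested 11 were at least 2-fold lower in the susi-2 IP and 1 higher, with a median of −0.21. Over all genes tested on the sense strand 4.19% were lower and 4.24% higher. The developmental timing microRNA let-7 had 2076 counts in the susi-2 IP, 5317 in the susi-3 IP and 14986 in the control IP. Of its family, which shares the seed, mir-241 had 573 against 1222 and lin-58 (mir-48) 39176 against 58918, while mir-84 had 5755 against 5564. The earlier timing microRNA lin-4 had 616 against 794. The lowest ratio among microRNAs with at least 1000 counts was that of mir-240, with 109 against 1008, and mir-70 had 4854 against 10739. The muscle microRNA mir-1 had 51290 against 66187 and mir-71 19781 against 21080. Among those with at least 1000 counts the highest ratio was that of mir-235, with 2408 against 1759. In total RNA let-7 was counted 43872 times in susi-2 and 57826 times in susi-3, so both kinds of library had less of it in susi-2.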

How the data were processed

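Small RNA of L3 larvae, total or bound to FLAG-tagged NRDE-3, had been treated with polyphosphatase and size-selected on gels, per the labels' protocols. The deposited tables hold raw counts per annotated feature, sense and antisense apart, with no normalization by the authors. The submitters' processing notes name Bowtie2 as the aligner. Its version is not given in the sources used here, nor are the genome build and the treatment of reads with several matches. The 56377 features were summed to 45510 genes, of which 43622 matched the gene-name table; 5 blank cells counted as 0, and 3 features without a gene (at most 122 counts in a library) were left out. No column of per-sample values was left unused.

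Each library's counts were divided by its total to CPM, and 1 count equals 0.110 CPM in the susi-2 IP and 0.105 CPM in the susi-3 IP. The ratio is log2 of CPM + 1, for genes with at least 50 counts over both libraries, and 2-fold differences were counted. Shares have Clopper-Pearson intervals and share ratios exact conditional ones, at 95%. With 1 library per group no test was run. TMM came from edgeR 4.0.16 in R 4.3.3; the rest used Python 3.11.15, numpy 2.4.6, pandas 2.3.3 and scipy 1.17.1. The counting of 2-fold differences was tested on simulated data with 200 changed genes. Named genes are the rRNA genes, the mutated and tagged loci, the 12 highest and 12 lowest antisense ratios among protein-coding genes with at least 200 counts, the extremes and most abundant members of each list or class, and the 6 highest and lowest sense ratios; genes known by a clone name could be left out. A few genes outside this rule, such as individual members of lists, were chosen after their values were seen. The members and gene lists were chosen with earlier results of these data known. Other filters, pseudocounts and scalings were tried.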

Additional observations from a re-analysis of the deposited data

Results flagged for a closer look

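The results given here had opposite directions in the 2 kinds of library, at least 2-fold for single genes and lists, and the difference between IP and total RNA was not tested because each kind has 1 library per mutant. Antisense 18S rRNA had a log2 share ratio, susi-2 over susi-3, of 3.40 in the IPs and −0.89 in total RNA. The median antisense log2 ratio of snRNA genes was 2.39 in the IPs and −1.40 in total RNA, that of spliced leader RNA genes 1.74 and −1.42, that of histone genes 1.49 and −1.31, and that of ERGO-1 target genes 1.97 and −1.54. The genes tested differ between the IPs and total RNA. They number 16 and 42, 8 and 14, 66 and 61, and 6 and 7 in the same order. Over all tested genes the median was 1.06 in the IPs and −0.05 in total RNA. After TMM these IP medians were 1.42, 0.79, 0.31 and 0.90.

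Among single genes the U1 snRNA gene sup-6 had antisense log2 ratios of 2.78 in the IPs and −2.27 in total RNA, smy-1 2.02 and −2.31, and sls-2.9 2.17 and −1.57. The snoRNA gene F59C6.15 had 3.27 and −1.60. The signal recognition particle genes srpr-2.1 and srpr-2.2 had 2.11 and −2.0, and 1.82 and −1.64. The gene of the tagged Argonaute, nrde-3, had 1.5 and −1.11. After TMM the IP values were 1.62 for sup-6, 1.0 for smy-1, 1.42 for sls-2.9 and 2.03 for F59C6.15. They were 0.82 for srpr-2.1, 0.52 for srpr-2.2 and 0.21 for nrde-3, so the size of these IP values depends on the scaling. On the sense strand the collagen gene sqt-1 had −1.25 in the IPs and 1.04 in total RNA.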

How the results depend on the processing

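No paired analysis was possible because each group has 1 library, and for the same reason no library could be left out. The antisense rRNA excess of the susi-2 IP kept its direction under every scaling tried. For the precursor genes it was 34.5-fold, 14.1 under TMM and 16 with the total of the same strand; for 5S rRNA it was 54.4, 22.2 and 25.2, and 5.75 with all copies as annotated. Outside rRNA the direction depends on the scaling. Genes at least 2-fold higher on the antisense strand numbered 2145, and 525 under TMM, 516 with median of ratios, 665 with the total of the same strand, 1059 with both strands added, 3902 with a minimum of 10 counts or of 1 count, 463 with 200 counts and 862 with a pseudocount of 5 CPM. Lower genes numbered 8, and 473, 479, 366, 202, 18, 18, 3 and 4 in the same order, and 16 with a pseudocount of 0.1 CPM. The antisense median was 1.06, and 0.011 under TMM, 0.0 with median of ratios, 0.16 with the total of the same strand, 0.19 with both strands added, 0.67 with 10 counts, 0.29 with 1 count and 0.62 with a pseudocount of 5 CPM. Higher genes on the sense strand numbered 331, and 628 with 10 counts or 1 count, 117 with 200 counts, 136 with a pseudocount of 5 CPM, 510 with the total of the same strand and 1059 with both strands added. Lower sense genes numbered 327, and 191, 168, 206 and 202 under the last 4 of these.

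The antisense share ratio turned below 1 under TMM and with the total of the same strand for protein-coding genes (0.731 and 0.830, from 1.79, with 1.78 without rRNA genes in the total), transposons (0.778 and 0.884), miRNA genes (0.787 and 0.894), ncRNA (0.541 and 0.614) and piRNA genes (0.700 and 0.795), and under TMM for mitochondrial genes (0.883). The sense ratio of miRNA genes was 1.01 with the total of the same strand. With both strands added, log2 ratios turned to −0.093 for rrn-1.1, −0.087 for rrn-1.2, −0.088 for rrn-3.1 and −0.10 for eel-1, where sense counts outnumber antisense ones. The extra alternatives on oppositely annotated rRNA features were chosen after seeing the data and gave 34.4 for the precursor genes and 52.8 for 5S rRNA. A single library per group limits every value: counting intervals leave out the spread between cultures, and at 0 counts the limit of 3 counts is 3.29e-05% of the susi-2 IP and 3.16e-05% of the susi-3 IP.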
